A study of Mus musculus with 4 samples.

Results

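Histidine is broken down to glutamate by 4 enzymes that act one after the other: histidine ammonia-lyase (Hal), urocanate hydratase (Uroc1), imidazolonepropionase (Amdhd1) and formimidoyltransferase cyclodeaminase (Ftcd). The genes were taken by symbol, as every probe set that the platform annotation ties to exactly 1 gene with 1 of these 4 symbols. This gave 6 probe sets of the 45037 non-control probe sets on the array, or 4 of 18193 named genes. Expression had been measured on 4 Affymetrix arrays, with total RNA of freshly sorted mammary basal cells, a fraction labelled as enriched for mammary stem cells and holding myoepithelial cells and their progenitors too. All mice carried the MMTV-Wnt1 transgene (Wnt1-Tg), in which a promoter active in the mammary gland drives the Wnt1 ligand, on the mixed background B66SJL/HEV/J. For 2 arrays the mice had been fed control casein (CAS), and for the other 2 soy protein isolate (SPI). No age is given in the labels, nor whether same-diet arrays represent different animals or pools, so a p-value here reflects sample-to-sample spread alone, part or all of it possibly technical.

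Hal removes ammonia from histidine and leaves urocanate, which absorbs ultraviolet light and collects in the outer layers of the skin. Uroc1, Amdhd1 and Ftcd carry urocanate on to glutamate in the liver, and the last step hands a formimino group to tetrahydrofolate, so the pathway feeds the folate-bound one-carbon pool. Liver Hal is known to follow the protein content of the diet. In the mammary gland the pathway is little described.

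The comparison asks whether a diet of soy protein in place of casein changed the transcripts of these cells. Hal was 3.86-fold higher on the SPI diet (95% interval of the limma fit 3.04 to 4.90, n = 2 arrays per diet). The 5 probe sets of Uroc1, Amdhd1 and Ftcd lay between 0.965-fold and 1.15-fold, and on each of them the arrays of the diets overlapped. A difference in the enzymes after Hal was not detectable with this number of arrays, whereas Hal differed by more than the spread between replicates. These are the values for which the genes were chosen, so they are a description and carry no p-value.

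Hal and Amdhd1 lie next to each other on chromosome 10, with no other gene between them in the RefSeq gene table, and are read toward each other, Hal on the plus and Amdhd1 on the minus strand. Their upstream sequences are shown because one gene of the adjacent pair was high on the SPI diet and on the other the diets overlapped. Each is the 250 bases before the gene's start in RefSeq, build GRCm38.p6, written 5′ to 3′ in the direction of the gene. Capitals mark TATAA, the letters CCAAT and the letters GGGCGG on either strand. All 4 genes matched an entry of the promoter table.
Hal, chr10:93488518-93488767, plus strand: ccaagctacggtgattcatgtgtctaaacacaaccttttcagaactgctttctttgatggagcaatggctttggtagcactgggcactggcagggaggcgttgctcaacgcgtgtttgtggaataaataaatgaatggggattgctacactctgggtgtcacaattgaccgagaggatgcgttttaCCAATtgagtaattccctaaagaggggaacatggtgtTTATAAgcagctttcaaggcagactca
Amdhd1, chr10:93540034-93540283, minus strand: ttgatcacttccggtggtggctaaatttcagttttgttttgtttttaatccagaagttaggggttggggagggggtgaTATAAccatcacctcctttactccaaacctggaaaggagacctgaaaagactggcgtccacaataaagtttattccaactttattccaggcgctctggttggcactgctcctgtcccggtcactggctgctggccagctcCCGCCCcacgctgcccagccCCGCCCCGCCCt

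The upstream windows differed in these letters. In the Hal window TATAA, the core of the TATA box that positions the start of transcription, began 26 bases before the start, with an overlapping match on the other strand 27 bases before it. A CCAAT match began 64 bases before the start, and GGGCGG, the letters of the GC box, had 0 matches. In the Amdhd1 window 3 GGGCGG matches on the other strand began 32, 12 and 7 bases before the start, TATAA began 172 bases before it, and CCAAT had 0 matches. Of 32851 windows of the same length in the table, 22.8% held TATAA, 33.8% CCAAT and 32.7% GGGCGG on either strand. These shares count a match anywhere in the window, so they do not say how common a match at the positions given here is. Ftcd, on which the diets overlapped, also held TATAA near its start, 29 bases before it. Uroc1, on which they overlapped too, held CCAAT matches 237 and 76 bases before its start. GGGCGG had 0 matches in the windows of Uroc1 and Ftcd, as in that of Hal. The window of Hal was 45.6% G and C and that of Amdhd1 53.2%, beside a median of 52.4%. TGANTCA, a loose pattern for AP-1 sites in which N stands for any base, was searched too. It had 1 match in the Hal window, 239 bases before the start, and 0 in the other 3 windows. The middle base of the Hal match was T, and whether AP-1 factors bind this form was not tested. Of all windows 6.75% held the pattern, whatever its middle base. TGACG, a partial cyclic AMP response element, had 0 matches in the windows of Hal, Amdhd1 and Uroc1 and 1 in that of Ftcd, where 17.8% of windows held it. These matches describe the letters only, and no binding was measured.

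Hal was read by a single probe set, 1418645_at. Its values, log2 units centred on the median of the 4 arrays, were -0.85 and -1.06 in CAS and 0.85 and 1.15 in SPI. Both SPI arrays lay above both CAS arrays, and the gap between the diets was several times the spread within either (SD 0.15 for CAS and 0.21 for SPI). The equal size of -0.85 and 0.85 comes from the centring, which sets the middle pair of every probe set to mirror each other. The log2 difference, SPI minus CAS, was 1.95 (SE 0.135). It ranked 5 of 45037 from the highest difference, and 0.0666% of probe sets differed by more in either direction. The deposited values hold no absolute level, but how coarse their digits are depends on how large each number was before it was centred. The finest step between arrays sets the class of a probe set, so the class is that of its dimmest array. By this Hal fell in the class 4 to 8 on the log2 scale, and its SPI arrays could lie in a higher class.

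**Figure D1:**
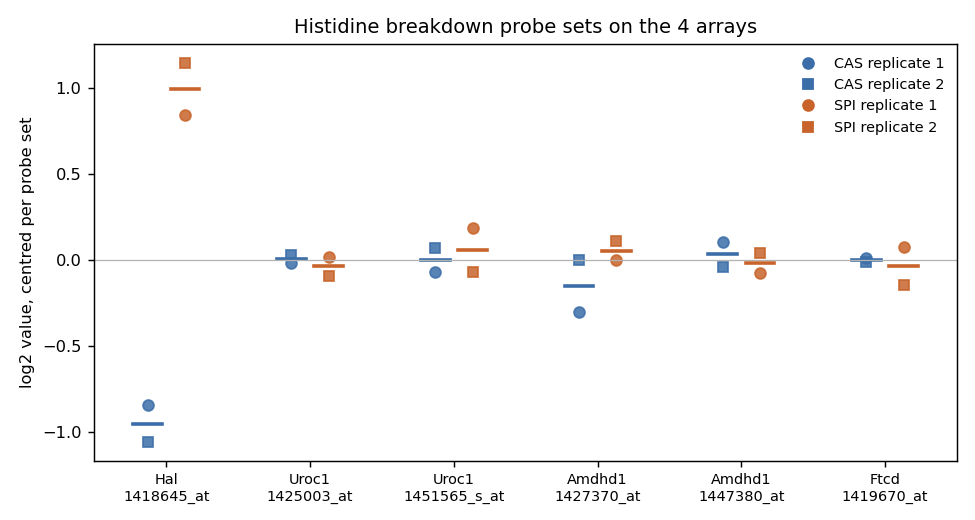
Log2 value of each histidine breakdown probe set, centred per probe set, on the CAS arrays (blue) and the SPI arrays (orange); circles are replicate 1, squares replicate 2 and bars the mean of the 2 arrays. Hal alone shows the diets apart, at -0.85 and -1.06 against 0.85 and 1.15, while the other 5 probe sets overlap.

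Uroc1, which turns urocanate into imidazolone propionate, had 2 probe sets. On 1425003_at the values were -0.02 and 0.03 in CAS and 0.02 and -0.09 in SPI. On 1451565_s_at, a kind of probe set that can bind related transcripts, they were -0.07 and 0.07 in CAS and 0.19 and -0.07 in SPI. The arrays of the diets overlapped on both, and on 1451565_s_at both CAS arrays lay between the SPI arrays. The log2 differences were -0.04 (SE 0.081) and 0.06 (SE 0.116), of opposite sign. Their 95% intervals ran from 0.841-fold to 1.12-fold and from 0.848-fold to 1.28-fold. Both probe sets were in the class 2 to 4, where 28 of 44 olfactory receptor probe sets lay too.

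Amdhd1, which opens the imidazolone ring, also had 2 probe sets. The one in the class 4 to 8, 1427370_at, stood at -0.30 and 0.003 in CAS and -0.003 and 0.11 in SPI, a log2 difference of 0.20 (SE 0.124, 0.923-fold to 1.43-fold). CAS replicate 1 was the low array there, and without it the log2 difference was 0.05. The other, 1447380_at, in the class 2 to 4, stood at 0.10 and -0.04 in CAS and -0.08 and 0.04 in SPI, a log2 difference of -0.05 (SE 0.092). The probe sets thus differed in sign, and neither separated the diets.

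Ftcd, the folate-dependent last enzyme, had a single probe set, 1419670_at. Its values were 0.01 and -0.01 in CAS and 0.08 and -0.15 in SPI. The SPI arrays lay on either side of both CAS arrays. The log2 difference was -0.03 (SE 0.101, 0.817-fold to 1.17-fold), in the class 2 to 4. Of the 5 probe sets of Uroc1, Amdhd1 and Ftcd 4 were in the class 2 to 4, and a fold change of a dim probe set is understated. Of 101 ribosomal protein probe sets 88 were at level 4 or above, against 12 of 44 for olfactory receptors.

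Across the array 676 of 45037 probe sets passed an adjusted p of 0.05 (limma, Benjamini-Hochberg), or 1.5%, with 112 higher in SPI (0.249%) and 564 lower (1.25%). Of the 6 histidine breakdown probe sets 1 passed, that of Hal, and nothing is read from this count, since the genes were chosen from this contrast. The diets did not overlap on 1 of the 6, beside 48.4% of all probe sets, 27.9% with SPI above and 20.5% with SPI below, and nothing is read from this count either. The median log2 difference of the 6 was 0.012, beside 0.023 for all probe sets. With arrays centred on the hybridization controls, bacterial and phage transcripts added to each sample that were lower in SPI by -0.155, the median of all probe sets moved to 0.178 and 2261 probe sets passed, 1557 higher and 704 lower. On that scale Hal stood at 2.1, and Uroc1, Amdhd1 and Ftcd at 0.104 to 0.357, so the sign of the 3 probe sets below 0 turned.

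**Figure D2:**
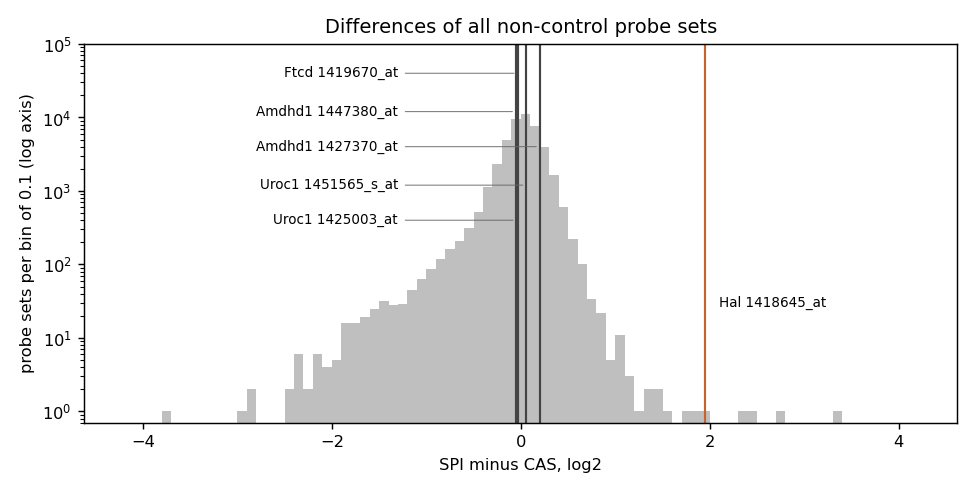
Number of non-control probe sets (log axis) by SPI minus CAS difference on the log2 scale, with a vertical line for each histidine breakdown probe set. Hal at 1.95 stands in the thin upper tail, and the 5 others, between -0.05 and 0.20, stand in the centre.

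Hal's call did not hold in every setting. In limma its log2 difference was 2.05 or 1.84 with the first or second CAS array left out and 2.1 or 1.8 with the first or second SPI array left out, and it no longer passed, as was so of all 45037 probe sets when 1 array stood alone for a diet. By an ordinary t statistic, with no sharing of spread between probe sets, the value was the same 1.95 and did not pass, and 1 probe set of the whole array did.

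Folate enzymes take up the one-carbon unit that Ftcd releases and pass it on to purines, thymidylate and methionine. Of 39 probe sets of 17 such genes, 0 passed in limma over all probe sets, where 1.5% of the array did, and 0 passed by the ordinary t statistic. At an unadjusted p under 0.05 there were 6 higher and 1 lower, where 17.8% of all probe sets met that threshold in either direction. With arrays centred on the hybridization controls 4 passed, all higher, where 2261 of 45037 probe sets passed, 1557 of them higher. The median log2 difference was 0.083. Mthfd2, a mitochondrial dehydrogenase of the folate cycle, had the smallest p, with -0.17 and -0.26 in CAS and 0.17 and 0.25 in SPI on 1419253_at (log2 difference 0.43, limma adjusted p = 0.0958). Its other probe set gave 0.35, and Mthfd1l, which releases formate in mitochondria, 0.34 (limma adjusted p = 0.126). The arrays of the diets did not overlap on these 3 probe sets. In the list as a whole they did not overlap on 51.3% of probe sets, near the 48.4% of the array. Aldh1l1, which oxidises formyl-folate in liver and lies near Uroc1 on chromosome 6, stood at -0.17 and -0.30.

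Folate uptake and storage showed no call either. Of 12 probe sets of 7 genes 0 passed in limma and 0 by the ordinary t statistic, with 0 higher and 1 lower at an unadjusted p under 0.05 (17.8% of all probe sets), that of the folate receptor Folr1 (log2 difference -0.41, limma adjusted p = 0.237). Slc19a1, the reduced folate carrier, stood at 0.21, 0.16 and 0.14 on its 3 probe sets. The median of the list was 0.119.

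Glutamate is the end product of the pathway. Of 32 probe sets of 14 genes that make or use it, 0 passed in limma and 0 by the ordinary t statistic, with 5 higher and 1 lower at an unadjusted p under 0.05 (17.8% of all probe sets). Gclm, a subunit of the enzyme that makes glutathione's precursor, was at 0.29 (limma adjusted p = 0.160) and Gpt2, the mitochondrial alanine aminotransferase, at 0.29 (limma adjusted p = 0.166). Glud1, glutamate dehydrogenase, was at 0.10 and -0.04 and in the class 8 to 16 on both probe sets. The median was 0.091.

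Histidine also serves histamine, carnosine and protein synthesis. Maob, a monoamine oxidase that acts late in the breakdown of histamine, rose 1.55-fold in SPI (limma adjusted p = 0.0327), with -0.31 and -0.31 in CAS and 0.31 and 0.33 in SPI. It was the 1 of 17 probe sets of 11 genes that passed, or 5.88% beside 1.5% of the array, and 0 fell. Hdc, which makes histamine from histidine, stood at 0.28 and 0.31 in CAS and -0.28 and -0.70 in SPI on 1454713_s_at and did not pass (log2 difference -0.79, limma adjusted p = 0.0970). Its other probe set was at -0.03. Hdc is also a gene of mast cells. Of 12 mast cell marker probe sets, Hdc included, 5 fell and 0 rose, where 1.25% of the array fell and 0.249% rose. They were those of Cma1, Cpa3, Fcer1a, Kit and Mcpt4, and the Kit probe set is counted again among the luminal markers below. The part of mast cells in the Hdc value was not tested. The histidyl-tRNA synthetases Hars (0.10 and 0.02) and Hars2 (0.09 and -0.08) did not pass, nor did Hnmt, which methylates histamine (0.21).

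**Figure D3:**
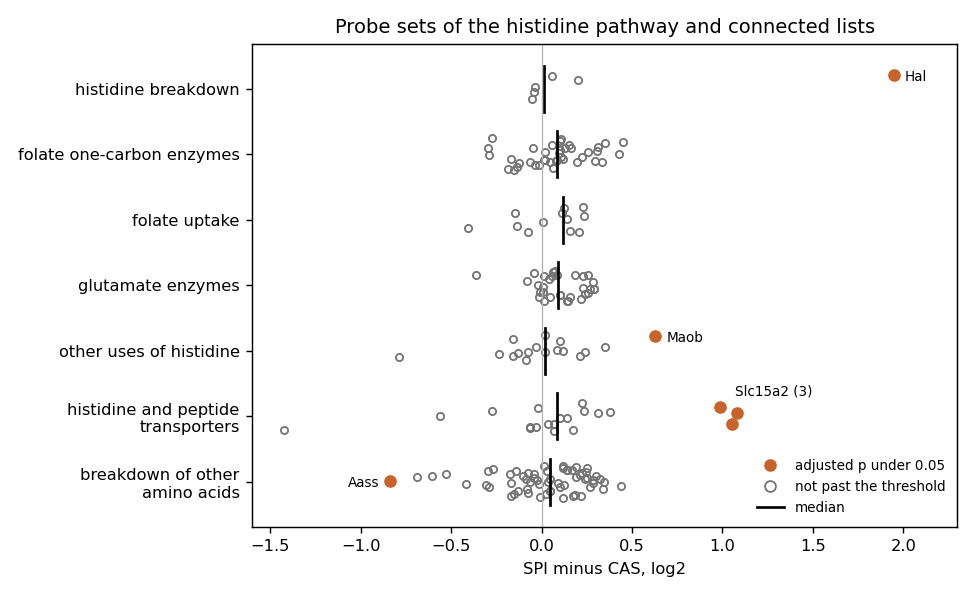
SPI minus CAS difference on the log2 scale of every probe set of the histidine breakdown genes and of 6 connected lists; filled points passed an adjusted p of 0.05 in limma, open points did not, and black bars are list medians. Hal, Maob and the 3 probe sets of Slc15a2 lie to the right and Aass to the left of lists whose medians are between 0.012 and 0.119.

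Among 12 carriers of histidine and small peptides, Slc15a2, which takes up di- and tripeptides, rose on all 3 of its probe sets, by log2 differences of 0.99, 1.05 and 1.08 (limma adjusted p = 0.0148, 0.0228 and 0.0269). On 1417600_at the values were -0.47 and -0.48 in CAS and 0.47 and 0.57 in SPI. The other 17 of the 20 probe sets did not pass, so all 3 calls of the list came from Slc15a2. On the whole array 1.5% of probe sets passed, 0.249% higher in SPI and 1.25% lower. Slc7a5, the exchanger of large neutral amino acids, was at 0.38 (limma adjusted p = 0.0976) and its partner Slc3a2 at 0.31. Slc6a14, a broad amino acid carrier, was at -1.42 and -0.56 and did not pass (limma adjusted p = 0.104 and 0.243), with CAS replicate 1 at 1.15 and CAS replicate 2 at 0.41 on the first.

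The breakdown of other amino acids was read on 61 probe sets of 39 genes. Aass, the first enzyme of lysine breakdown, fell 1.79-fold (limma adjusted p = 0.0200), with 0.39 and 0.41 in CAS and -0.39 and -0.47 in SPI. It was the 1 probe set that passed, 1.64% of the list, close to the 1.5% of the array. Arg1, which splits arginine, stood at -0.69 (limma adjusted p = 0.0531). At an unadjusted p under 0.05 there were 7 higher and 9 lower in the list, beside 17.8% of all probe sets, and its median was 0.044. The lists named 11 further genes that were not analysed here.

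The genes beside the 4 pathway genes were described through the 3 on each side in the RefSeq order. Of 18 such genes 12 had 19 probe sets. Col6a2, a chain of collagen VI next to Ftcd, fell on both of its probe sets (log2 differences -1.33 and -1.62, limma adjusted p = 0.0241 and 0.00707). These were the 2 of the 19 that passed, beside 1.25% of the array that fell and 0.249% that rose. The other 17 lay between -0.16 and 0.30 and did not pass. Around Hal, Lta4h, which makes leukotriene B4, stood at 0.03, 0.03 and 0.12. Ccdc38 stood at 0.25 and -0.04 and Snrpf, a core protein of the spliceosome, at -0.15. Beyond the 3 genes beside Hal, 4933408J17Rik, which lies 3 genes past Amdhd1, stood at -0.08. No measured neighbour of Hal passed, where 1.5% of the array did.

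**Figure D4:**
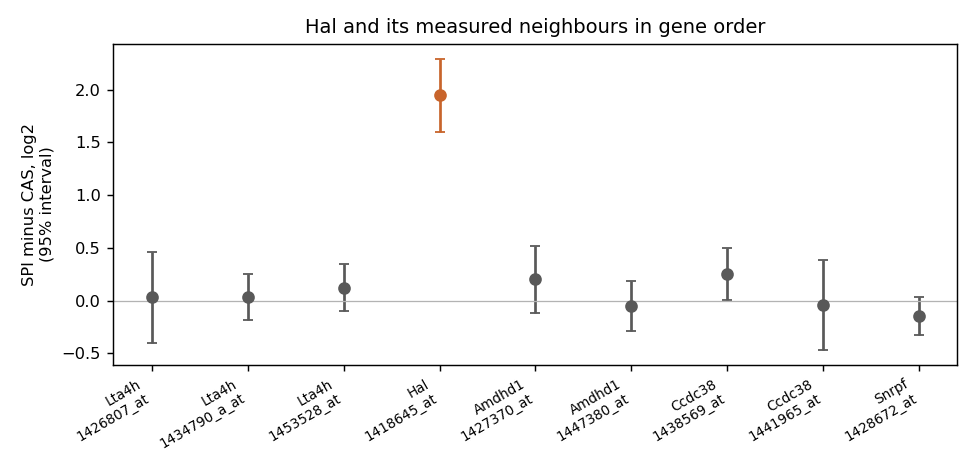
SPI minus CAS difference on the log2 scale, with the 95% interval of the limma fit, of each probe set of Hal and of its measured neighbours in gene order. Hal is at 1.95 and its neighbours, Amdhd1 among them, lie between -0.15 and 0.25.

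The probe sets with values nearest to those of Hal, by Euclidean distance over the 4 arrays, are given as a description. Egfl6, a secreted protein with EGF repeats, was nearest at 0.234 log2 units, with -0.80 and -0.95 in CAS and 0.80 and 0.95 in SPI. A probe set of Ctsl, a lysosomal protease, followed at 0.418, one of Ang, a secreted ribonuclease, at 0.483 and one of Lats1, a kinase of the Hippo pathway, at 0.488. Cbln1, a synapse organiser (0.600), the transcription factor Zbtb16 (0.639), the urea carrier Slc14a1 (0.660) and Psd2 (0.663) completed the 8. The likeness did not always hold for the gene as a whole. The other probe set of Ctsl had a log2 difference of 0.019 and that of Lats1 0.106, against 1.54 and 1.86 on the near ones. Those of Cbln1 lay at 0.50 and 1.07 and those of Zbtb16 at 0.42 and 1.07, on the same side as Hal. The other probe sets of Ang lay at 0.285 and 3.35 and that of Slc14a1 at 0.779. Egfl6 and Psd2 had no other probe set.

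**Figure D5:**
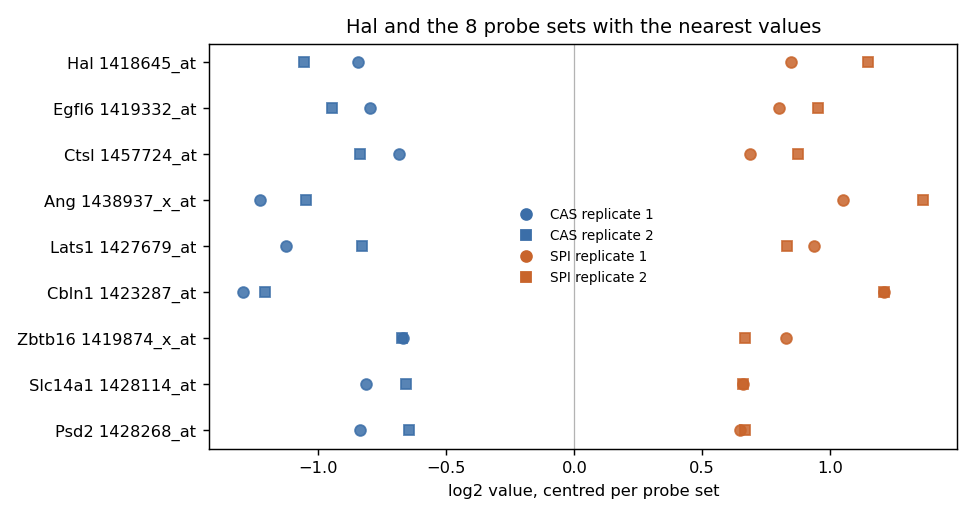
Log2 value, centred per probe set, on each of the 4 arrays for Hal and the 8 probe sets with the smallest Euclidean distance to it; blue is CAS, orange SPI, circles replicate 1 and squares replicate 2. All 9 have both CAS arrays below 0 and both SPI arrays above 0, and Hal itself is at -0.85 and -1.06 against 0.85 and 1.15.

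Cell markers were set beside Hal because it is known from liver and epidermis. Of 18 hepatocyte marker probe sets 0 passed in limma and 0 by the ordinary t statistic. At an unadjusted p under 0.05, which 17.8% of all probe sets met, 2 were higher and 1 lower. Alb, the main plasma protein, was at 0.25, and the median log2 difference of the list was 0.005. Of 22 suprabasal keratinocyte probe sets 5 fell, those of Sbsn, Dmkn and Dsg1a, and 0 rose. On the array 1.25% fell and 0.249% rose. The other 11 of the 14 keratinocyte genes did not pass. At an unadjusted p under 0.05 (17.8% of all probe sets) 2 of the 22 were higher and 6 lower. SPI lay above CAS on 5 of the 22 and below on 7, beside 27.9% and 20.5% of the array. The keratinocyte list medians were 0.0094 and -0.0157 in CAS and -0.00925 and -0.000762 in SPI. Markers of the sorted basal fraction were bright, with 25 of 29 probe sets at level 4 or above. Krt5 was at -0.04, but the median log2 difference of the list was 0.134, beside 0.023 for all probe sets. SPI lay above CAS on 17 of the 29 and below on 0, beside 27.9% and 20.5% of the array. At an unadjusted p under 0.05 (17.8% of all probe sets) 5 were higher and 0 lower. Oxtr, the oxytocin receptor of myoepithelial cells, rose 1.61-fold on 1 of its probe sets (limma adjusted p = 0.0270). That was the 1 of the 29 that passed, or 3.45% beside 1.5% of the array, and 0 fell. On the same arrays 12 of 20 fibroblast and 6 of 13 endothelial and pericyte probe sets fell and 0 rose. Of the luminal probe sets 5 of 22 fell, of the adipocyte probe sets 2 of 8, and 0 rose. These counts stand beside 1.25% of the array that fell and 0.249% that rose. Of 10 leukocyte probe sets 0 passed in limma and 0 by the ordinary t statistic. At an unadjusted p under 0.05, which 17.8% of all probe sets met, 3 were higher and 0 lower. On the scale of the hybridization controls 2261 of 45037 probe sets passed, 1557 higher and 704 lower. There 1 of 18 hepatocyte, 2 of 10 leukocyte and 4 of 29 basal probe sets passed, all higher. In the keratinocyte list 1 was higher and 5 lower, and in the adipocyte list 1 was higher and 4 lower. The fibroblast list had 12 lower, the endothelial and pericyte list 7 and the luminal list 4, with 0 higher. The fibroblast medians were 0.620 and 0.667 in CAS and -0.620 and -0.650 in SPI. Fewer cells of a type and less RNA per cell cannot be told apart in such sorted but bulk samples, and the part of these shifts in the Hal value was not tested.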

How the data were processed

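Per the submitters' processing notes the authors used GCOS and RMA (version: not given in the sources used here), and the deposited values are log2 expression, the base being that of RMA. In each probe set the 4 arrays had a median no farther from 0 than 5e-07, so values had been centred per probe set, a step no label records. Level classes (8 to 16, 4 to 8, 2 to 4) were read from the finest step between arrays, with a tolerance of 0.03 steps plus the rounding of the digits; 3120 probe sets stayed unresolved, and a class can be too high by chance.

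Symbols came from the platform annotation (34945 probe sets with 1 gene, 932 with several, 9160 not listed) and were updated by gene ID through RefSeq GRCm38.p6 (34741 matched). Every non-control probe set was fitted with limma 3.58.1 in R 4.3.3 (lmFit, eBayes, SPI minus CAS, two-sided, 2 residual and 3.11 prior degrees of freedom) and adjusted over all 45037. The fit was tested on simulated data. Array medians were between -0.0096 and 0.0092. The number of arrays limits the precision.

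The pathway genes, lists and tests were chosen with earlier results of these data known. Named were all probe sets of the 4 genes, every gene of the 6 connected pathway lists that passed and the 2 of smallest p in each, the 8 nearest probe sets and, of the 3 neighbours on each side, those of Hal and those that passed; other genes were chosen after their values were seen, markers among them. Replicate numbers paired nothing in the labels, so the model had no block.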

Additional observations from a re-analysis of the deposited data

How the results depend on the processing

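Hal, whose value is a description, kept its direction in all 11 alternative fits, but most of them could not have changed it. Fits that alter only the test reuse the same difference, and leaving out 1 array cannot reverse diets that do not overlap. It did not pass with the ordinary t statistic (1.95), with the replicate block (1.95) and with 1 array left out (1.8 to 2.1). No setting brought Uroc1, Amdhd1 or Ftcd past the threshold.

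The 676 probe sets past the threshold became 2261 when hybridization controls set the centre, 79 with the replicate block (4 higher, 75 lower), 1 with the ordinary t statistic (6084 at an unadjusted p under 0.05), 0 with any 1 array left out (4882 to 6513 at an unadjusted p under 0.05), 1579 at an adjusted p of 0.10 and 1136 at an unadjusted p of 0.05 with 1.5-fold. The 5 calls in the connected lists became 16, 0, 0, 0, 11 and 9 in the same order (28 to 36 at an unadjusted p under 0.05 with 1 array left out, 39 with the block, 38 with the t statistic), and 10 when a gene's probe sets were averaged. Maob, Aass, Slc15a2 and Col6a2 did not pass with the t statistic, the replicate block or any 1 array left out. These settings could not turn their direction, since the diets did not overlap on these probe sets. Same-numbered arrays did not deviate together (correlation -0.0989 over probe sets), so the numbers are not taken as pairs. The cause of these shifts was not tested, beside the fewer arrays where 1 was left out.

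The arrays hold no absolute levels, and dim probe sets understate a fold change.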
